A study of Mus musculus with 12 samples.

Results

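The genes described here encode the nuclear part of the mitochondrial respiratory chain and of the ATP synthase, measured in the hypothalamus of 12 mice. They were chosen by symbol: names that start with Nduf, Uqcr, Atp5 or Cox4 to Cox8, and the succinate dehydrogenase subunits Sdha to Sdhd, without pseudogenes. Gene names covered only probes kept in the authors' processed values, 20791 of 45281, so chain genes outside them could not be counted. These probes named 80 such genes, and 79 of them passed the detection filter, among 13547 features tested (10912 of them with a gene name). The 79 comprise 34 complex I genes, 7 complex I assembly factors, 3 complex II genes, 6 complex III genes, 13 complex IV genes and 16 ATP synthase genes. The gene that did not pass is Cox4i2, a lung and hypoxia isoform of complex IV, detected on 2 arrays. Of the 79, 77 were detected on all 12 arrays, Cox6b2 on 11 and Cox8b on 3. Ndufa4 is counted with complex I by its name, although its protein has since been placed in complex IV. Sdha, Cox8a and Ndufa4l2 were not analysed here.

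All mice were of the inbred strain FVB/NJ and were examined at postnatal day 180. Small-litter mice, a model of overnutrition after birth per the labels, were compared with control mice in each sex. There were 3 small-litter females, 3 control females, 3 small-litter males and 3 control males, with total RNA of each hypothalamus on 1 Illumina bead array. The labels give neither the number of pups in a litter nor whether mice of a group shared one, so p-values measure the spread between these mice.

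Complex I takes electrons from NADH and complex II takes them from succinate. Complex III passes them to cytochrome c and complex IV to oxygen, while complexes I, III and IV pump the protons whose return drives the ATP synthase. All complexes but complex II combine nuclear subunits, such as those measured here, with subunits encoded by mitochondrial DNA. Hypothalamic neurons that control feeding and body temperature depend on this chain for ATP, as other neurons do.

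Of 11 neuronal and 15 hypothalamic markers listed, 9 and 13 had a named probe, and all of these were detected. Names covered only the authors' 20791 processed probes, a number equal to that of probes with detection p under 0.05 on 6 or more arrays. Detection of named markers was thus nearly fixed in advance. It was also complete for thalamic (10 of 10) and choroid plexus (6 of 6) markers, so it does not tell tissues apart. The sex labels fit the Y-linked Kdm5d and Eif2s3y, found in all 6 males and 0 females, and Xist, found in all 6 females and 0 males. The median bead signal was 102.6 to 108.1 on male arrays and 112.2 to 127 on female arrays. It was 112.2 to 118.2 in small-litter females and 121.1 to 127 in control females, before arrays were brought to the same distribution. Male small litter 2 and 3 stood apart from the rest on principal component 1 of all features (21.4 and 27.9, against 4.62 on the next array).

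Most respiratory chain and ATP synthase genes were slightly higher in small-litter mice than in control mice, in both sexes, relative to all features measured, and none passed the test alone. Features of similar brightness were not set beside these genes, so whether the shift is particular to them was not tested. In females, 55 of 79 members (69.6%) lay above 0, against 50.7% of all features. In males, 58 members (73.4%) did, against 47.6% of all features. Levels and differences are on the log2 scale throughout, so a difference of 0.05 is a change of a few percent. The median difference of the members was 0.038 in females and 0.061 in males, against 0.0022 and -0.011 over all features. Averaged over both sexes, 61 members (77.2%) were higher in small-litter mice, against 48% of all features, with a median of 0.049 against -0.0052. These shares follow arrays brought to the same distribution; with median scaling 24 members lay above 0 in females and 31 in males, where the median of all features was itself -0.066 and -0.116. Relative to that median, 53 members were higher in females and 62 in males with median scaling. By complex, and relative to that median, the average was then higher for 29 of 34 complex I genes, 4 of 7 assembly factors, 1 of 3 complex II genes, 5 of 6 complex III genes, 11 of 13 complex IV genes and 14 of 16 ATP synthase genes. Directions of complexes below follow quantile normalization; with median scaling the average medians of complex I, complex III, complex IV and the ATP synthase were below 0 (-0.021, -0.055, -0.028 and -0.024), as was that of the assembly factors (-0.093).

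Small-litter and control arrays of females and of males are different mice, although all 12 were normalized together. Of the 79 members, 40 (50.6%) were higher in small-litter mice of both sexes, against 21.5% of all features. A further 6 (7.59%) were lower in both, against 23.2%. By complex, 22 of 34 complex I genes, 3 of 7 assembly factors, 0 of 3 complex II genes, 3 of 6 complex III genes, 5 of 13 complex IV genes and 7 of 16 ATP synthase genes were higher in both. With median scaling, 39 members lay above the median of all features in both sexes, against 22.7% of all features. Cox8b is counted among the 40 although it passed the detection filter through small-litter arrays alone. Without it, 39 of 78 members were higher in both sexes, 54 in females (median 0.036), 57 in males (median 0.060) and 60 on average (median 0.049). All these counts were made with the results in view and carry no test.

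**Figure D1:**
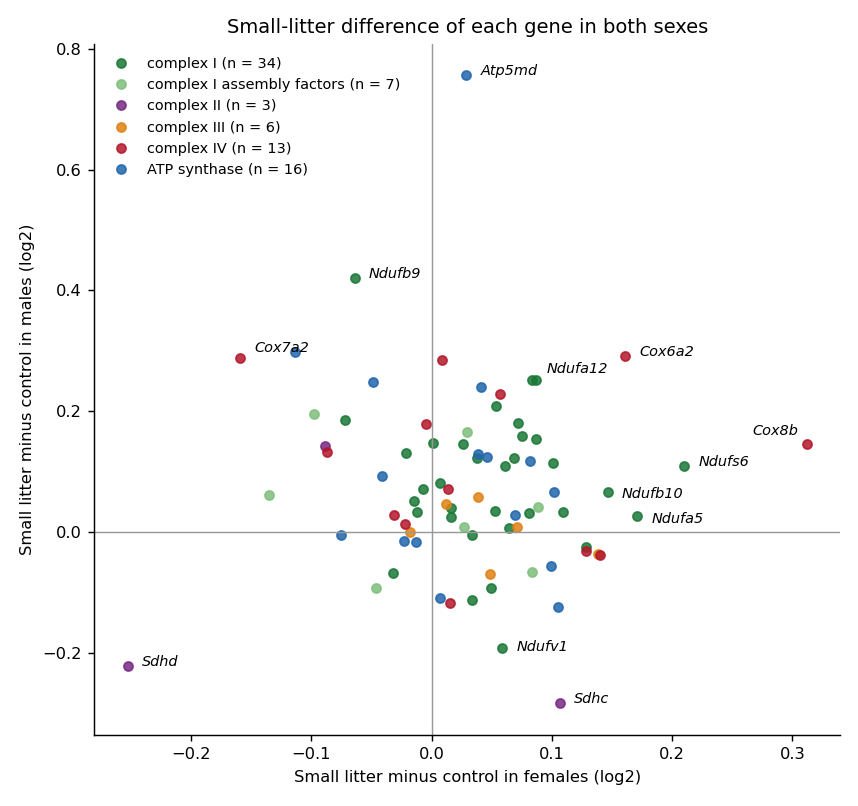
Small litter minus control difference of each of the 79 genes on the log2 scale in females (horizontal axis, 3 mice per group) and males (vertical axis, 3 mice per group), coloured by complex. Of the points, 40 lie at the upper right, above 0 in both sexes after quantile normalization (10 with median scaling), and 6 at the lower left; Atp5md stands highest, at 0.76 in males.

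The members varied less from mouse to mouse than features at large. Their median residual SD was 0.098, against 0.163 over all features. Features of similar brightness were not set beside them, so whether the smaller spread is particular to these genes was not tested. The median standard error of a difference within a sex was 0.099 for the members, larger than the median difference itself. Relative to each gene's mean over the 12 arrays, the members' median level was 0.009 ± 0.013 in small-litter females and -0.035 ± 0.025 in control females (SD, n = 3 arrays each). It was 0.035 ± 0.022 in small-litter males and -0.014 ± 0.029 in control males (SD, n = 3 arrays each). The arrays ran from -0.006 to 0.018 in small-litter females and from -0.054 to -0.006 in control females, and from 0.018 to 0.06 in small-litter males and from -0.047 to 0.004 in control males. The 2 male groups were apart, and the 2 female groups met at -0.006.

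**Figure D2:**
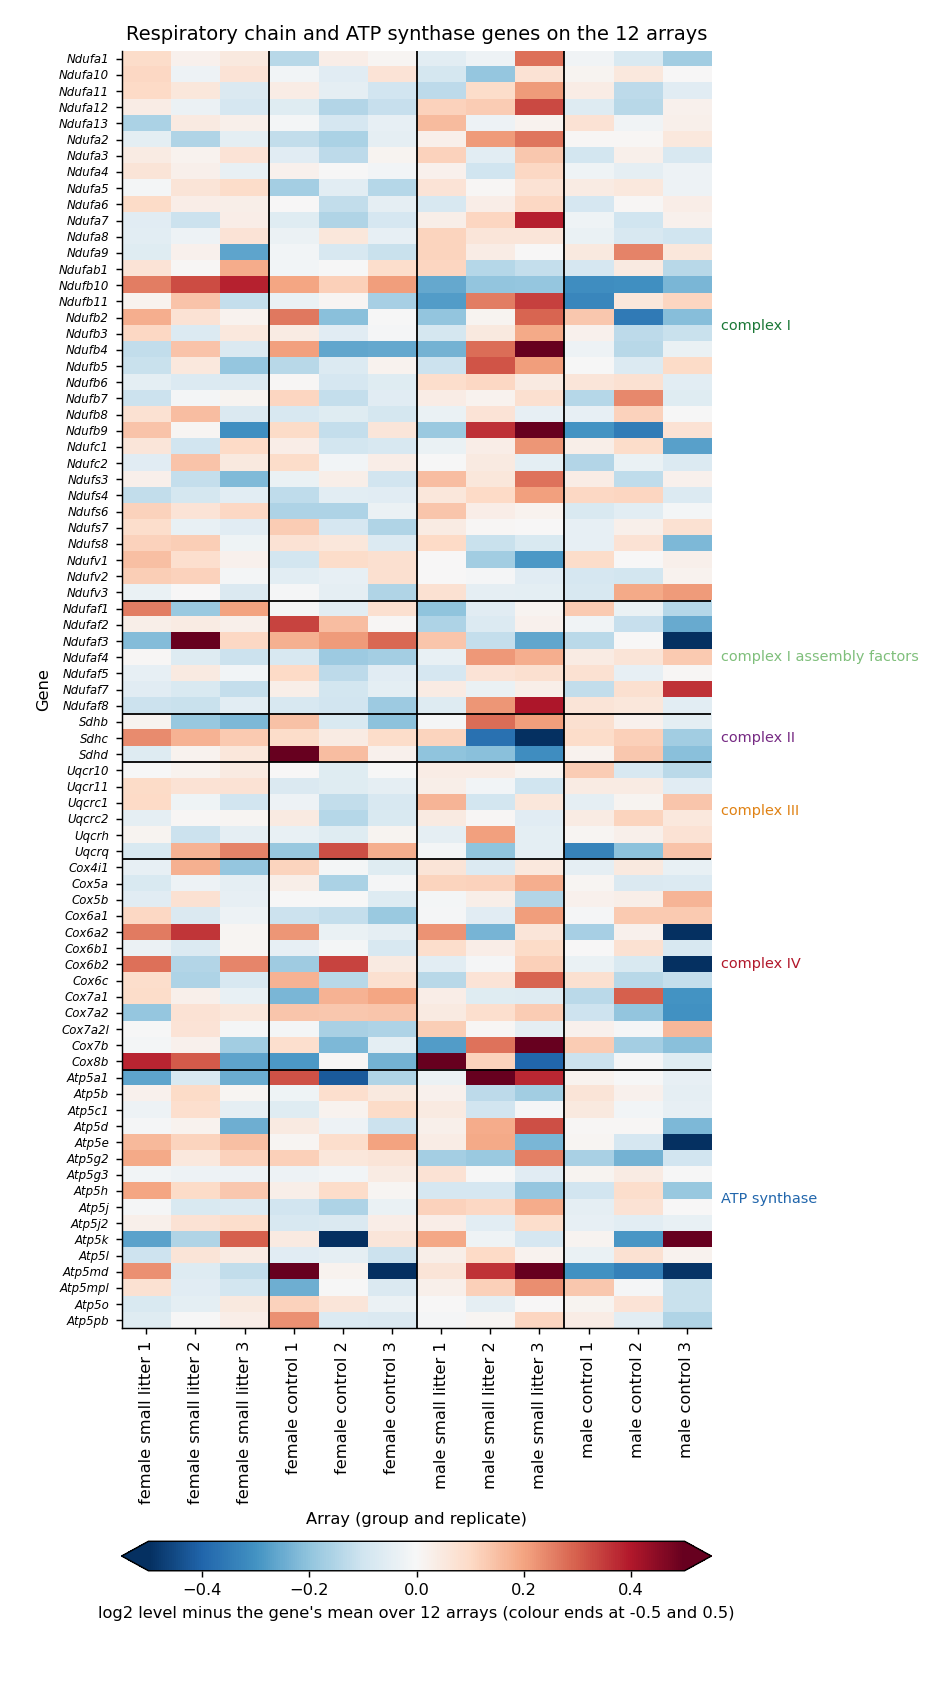
Level of each of the 79 genes (rows, by complex) on each of the 12 arrays (columns, by group) as the log2 level minus the gene's mean over all arrays, red above and blue below it. Most cells are pale, with a median residual SD of 0.098 over the genes. Cells of Atp5a1, Atp5e, Atp5k, Atp5md, Ndufb4, Ndufb9, Ndufaf3, Sdhc, Sdhd, Cox6a2, Cox6b2, Cox7b and Cox8b pass the ends of the colour scale. Ndufb10 separates the sexes.

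No member passed an adjusted p of 0.05 in any of the 5 comparisons (limma, Benjamini-Hochberg adjustment over all 13547 features). Among all features, 0% passed in small-litter against control females, 0% in small-litter against control males, 0% in the average of both sexes and 0% in the difference between the sexes' effects. In control males against control females, 9 features (0.0664%) passed, and no member was among them. At an unadjusted p under 0.05, 1 member was found in females (3.34% of all features), 5 in males (13.4%), 4 in the average (6.08%), 2 in the difference between the sexes' effects (9.75%) and 6 between control males and control females (12.2%). As shares of 79, the members' counts lie below these in females, males, the difference and the sex comparison, and near them in the average. In females, 10 members (12.7%) had all 3 small-litter mice above all 3 control mice, against 5.13% of all features, and 1 member (1.27%) had them all below, against 4.46%. In males, 10 members (12.7%) had the small-litter mice above, against 7.29% of all features, and 0 had them below, against 7.56%.

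Marker lists of other tissue also had different levels in the groups. All 10 measured thalamic markers were higher in small-litter females than in control females, and 11 of 13 hypothalamic markers were lower. In males 4 of 10 thalamic markers were higher (median -0.055, against 0.224 in females), and so were 9 of 13 hypothalamic markers (median 0.103, against -0.211 in females). The mean relative level of the thalamic list ran from -0.165 to 0.300 in small-litter females and from -0.204 to -0.039 in control females. Of 9 meningeal markers, 0 were higher in small-litter females and 1 in small-litter males. The meningeal list ran from -0.325 to -0.264 in small-litter females and from -0.364 to 1.278 in control females, and from -0.457 to 0.415 in small-litter males and from -0.370 to 1.279 in control males, with female control 3 and male control 2 at the top. Without those 2 control arrays the members' median was 0.031 in females and 0.075 in males. Without male small litter 2 and 3, the median in males was 0.025, with 50 of 79 members higher, against 51.5% of all features. Red blood cell markers were higher in 0 of 5 cases in females (median -0.270) and 2 of 5 in males (median -0.019). Choroid plexus markers were higher in 1 of 6 in females (median -0.388) and 3 of 6 in males (median -0.039). Astrocyte markers were higher in 4 of 8 in females and 7 of 8 in males, and microglial markers in 2 of 8 and 5 of 8. Neuronal markers were higher in 5 of 9 in females and 3 of 9 in males, and oligodendrocyte markers in 4 of 7 and 2 of 7. Endothelial markers were higher in 3 of 7 in females and 2 of 7 in males, and pericyte and smooth muscle markers in 2 of 7 in both. Cortical and striatal markers were higher in 2 of 4 in females and 3 of 4 in males, and skeletal muscle markers in 1 of 2 and 0 of 2. No marker of these lists passed the test in either sex. The part of the thalamic, hypothalamic, red blood cell, choroid plexus and astrocyte markers in the result was not tested. In whole tissue, more cells of a type and more RNA per cell cannot be told apart.

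**Figure D3:**
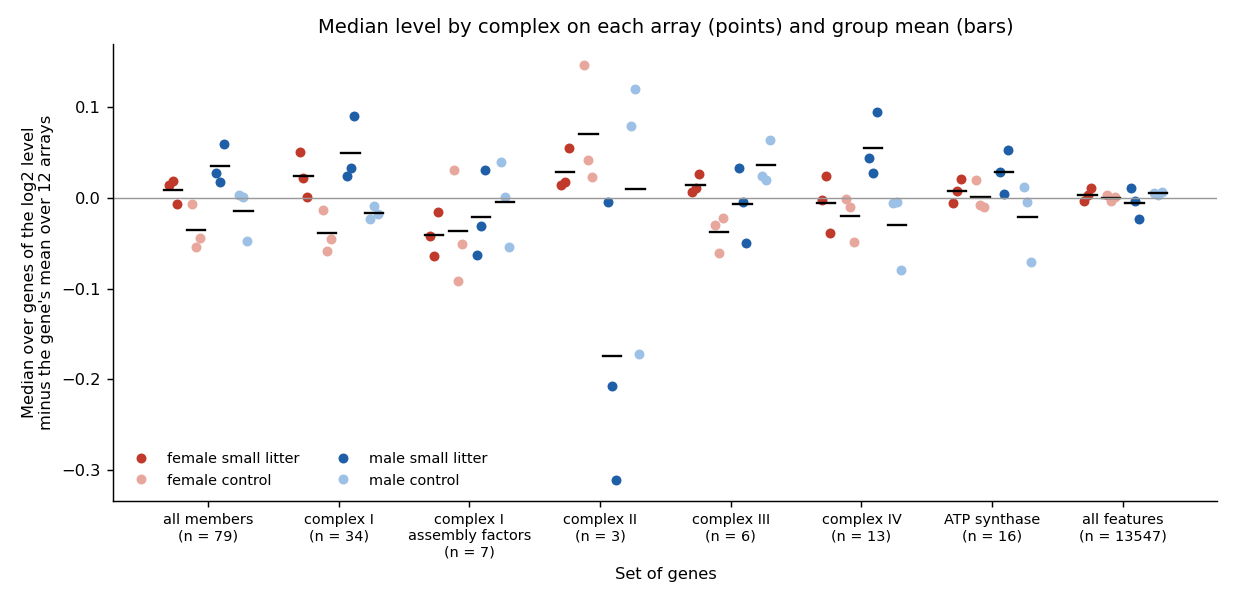
Median log2 level over the genes of each complex, relative to each gene's mean over 12 arrays, with 1 point per array and a bar at the mean of 3 arrays, by group. For all 79 members the bars stand at 0.009 in small-litter females, -0.035 in control females, 0.035 in small-litter males and -0.014 in control males; the points of the 3 complex II genes spread most.

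Promoters of several members share short motifs that regulators of nuclear mitochondrial genes are known to bind, and a few are shown here from members of different complexes, picked because they hold a match close to the start. RefSeq promoters (build GRCm38.p6, 300 bases each, 250 before the start and 50 from it) were matched to 69 members, with 74 windows. Both strands were searched for GCGCATGC, a core of the NRF1 site, CCGGAAG, a core of ETS factors such as GABPA, and AAGATGGC, a core of the YY1 site. The NRF1 core stood in 12 windows (16.2%, against 2.7% of all 32851 promoters and 5.0% of those of the tested named genes). The ETS core stood in 18 windows (24.3%, against 8.9% and 16%) and the YY1 core in 11 (14.9%, against 2.7% and 4.1%). At least 1 of the 3 stood in 34 windows (45.9%, against 13.3% and 23.0%), and the ETS and YY1 cores can overlap by the letters AAG. Of the 11 YY1 windows, 7 belong to complex I, 1 to an assembly factor and 3 to the ATP synthase. Matches are descriptions of these windows and not binding sites. The stretches below run 5′ to 3′ from 100 bases before the start to 30 bases from it, on the gene's strand, with matches in capitals (GCATGCGC and CTTCCGG are the NRF1 and ETS cores read on the opposite strand). Ndufa3 carries the YY1 core, Ndufaf4 the NRF1 core, Sdhd and Atp5md the ETS core, Uqcr11 the NRF1 and ETS cores and Atp5j the YY1 and ETS cores. A further Atp5j window, at another start and not shown, holds none of the 3.
Ndufa3 (chr7:3617273-3617402, plus strand): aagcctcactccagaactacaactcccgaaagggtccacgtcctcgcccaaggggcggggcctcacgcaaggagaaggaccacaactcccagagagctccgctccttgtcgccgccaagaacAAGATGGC
Ndufaf4 (chr4:24897983-24898112, plus strand): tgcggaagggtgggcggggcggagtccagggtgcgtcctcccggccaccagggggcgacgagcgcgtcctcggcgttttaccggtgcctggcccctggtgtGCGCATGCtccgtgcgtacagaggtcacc
Sdhd (chr9:50603820-50603949, minus strand): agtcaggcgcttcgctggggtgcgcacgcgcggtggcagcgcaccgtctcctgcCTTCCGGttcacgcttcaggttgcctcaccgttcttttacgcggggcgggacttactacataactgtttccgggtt
Uqcr11 (chr10:80406792-80406921, minus strand): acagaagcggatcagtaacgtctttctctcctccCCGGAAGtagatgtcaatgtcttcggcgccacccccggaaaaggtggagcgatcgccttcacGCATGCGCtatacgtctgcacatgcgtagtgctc
Atp5j (chr16:84834947-84835076, minus strand): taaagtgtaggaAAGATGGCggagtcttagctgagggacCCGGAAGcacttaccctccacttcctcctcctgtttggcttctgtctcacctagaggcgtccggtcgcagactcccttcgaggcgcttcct
Atp5md (chr19:47090618-47090747, minus strand): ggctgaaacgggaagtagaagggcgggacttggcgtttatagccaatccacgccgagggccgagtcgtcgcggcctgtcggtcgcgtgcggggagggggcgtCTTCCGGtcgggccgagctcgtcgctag

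Sdhd and Atp5md, whose average differences had opposite signs (-0.24 and 0.39), both carry the ETS core in this window. Ndufb10, Ndufa12 and Cox7a2, described below, hold none of the 3 in the 300-base window, and Ndufs6 holds the YY1 core in its window but outside the stretch of this length.

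Complex I genes were higher in 30 of 34 cases (88.2%) on average, with a median of 0.064. That share was the largest of the 6 groups of genes after quantile normalization, while with median scaling, relative to all features, ATP synthase genes (14 of 16) stood above complex I genes (29 of 34). In females 27 of 34 were higher (median 0.053), and in males 28 of 34 (median 0.077). Ndufs6 encodes a zinc-binding accessory subunit of the matrix arm, the part that takes up NADH. It read 12.81, 12.76 and 12.80 in small-litter females and 12.54, 12.54 and 12.66 in control females. It read 12.83, 12.73 and 12.71 in small-litter males and 12.62, 12.64 and 12.68 in control males. Every small-litter mouse lay above every control mouse of its sex, which held for no other member and for 0.207% of all features. The difference was 0.21 ± 0.08 (standard error, as for all differences below) in females and 0.11 ± 0.08 in males, and 0.16 ± 0.06 on average (limma adjusted p = 0.81401). A second Ndufs6 probe differed by -0.11 in females and 0.27 in males, so the probes did not agree in females.

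Ndufa12 encodes another accessory subunit of the matrix arm. It read 12.37, 12.38 and 12.59 in small-litter males and 12.19, 12.12 and 12.28 in control males, without overlap. It read 12.29, 12.23 and 12.17 in small-litter females and 12.19, 12.11 and 12.14 in control females, with overlap. The difference was 0.25 ± 0.09 in males (limma adjusted p = 0.29708) and 0.17 ± 0.07 on average. Ndufa5, a matrix-arm accessory subunit, read 12.43, 12.51 and 12.54 in small-litter females and 12.28, 12.39 and 12.30 in control females, again apart. In females it differed by 0.17 ± 0.08 (adjusted p = 0.9996). It differed by 0.03 ± 0.08 in males, reading 12.52, 12.45 and 12.52 in small-litter males and 12.49, 12.50 and 12.42 in control males. Its second probe differed by 0.25 in females, 0.42 in males and 0.33 on average, the same direction as the probe used. The probes did not agree on which sex had the larger difference.

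The values of Ndufb9 and Ndufv1 turned on few male arrays. Ndufb9, a membrane-arm accessory subunit of the LYR protein family, read 10.36, 10.91 and 11.05 in small-litter males and 10.25, 10.20 and 10.62 in control males. It read 10.69, 10.56 and 10.24 in small-litter females and 10.64, 10.43 and 10.61 in control females. The groups overlapped in both sexes, and the difference in males was 0.42 ± 0.18 (limma adjusted p = 0.34288). Without male small litter 1 it was 0.63, with an adjusted p of 0.046941, so the call turned on that array. Male small litter 1 itself, at 10.36, lay within the range of control males, so the difference in males rested on male small litter 2 and 3. Over the alternatives the female effect minus the male effect of Ndufb9 ranged from -0.69 to -0.07. Ndufv1, the core subunit that binds NADH and the flavin, was among the few complex I genes that were lower on average, by -0.07 ± 0.07. It read 12.42, 12.24 and 12.13 in small-litter males and 12.50, 12.41 and 12.44 in control males, and 12.56, 12.50 and 12.44 in small-litter females and 12.32, 12.50 and 12.49 in control females. Without male small litter 2 and 3 the average was 0.01, the other direction.

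The 7 complex I assembly factors, which build the complex but leave it when it is finished, showed little shift (5 higher on average, median 0.017). With median scaling their average median less that of all features was 8e-04. The mean of their array medians was -0.04 in small-litter and -0.037 in control females, and -0.021 in small-litter and -0.004 in control males. Ndufaf8 had the smallest p among them on average, at 0.10 ± 0.08. Ndufaf7, a mitochondrial methyltransferase, was lower on average by -0.07 ± 0.08, a difference that rested on male control 3 and was -0.01 without it. It read 7.92, 7.90 and 7.86 in small-litter females and 8.01, 7.88 and 7.92 in control females, and 8.02, 7.94 and 8.01 in small-litter males and 7.85, 8.06 and 8.34 in control males. Ndufaf2, a relative of Ndufa12 that holds its place during assembly, read 9.72, 9.73 and 9.72 in small-litter females and 10.03, 9.85 and 9.70 in control females. That difference of -0.14 ± 0.10 rested on female control 1, and was -0.05 without it.

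After quantile normalization, complex II alone among the groups of genes had a median difference below 0 on average (-0.088). In it 2 of 3 genes, Sdhd and Sdhc, were lower in small-litter mice on average. For Sdhc this rested on male small litter 2 and 3. Without those arrays it was higher in both sexes (0.11 in females and 0.10 in males), which left Sdhd as the lower gene. Sdhd, a membrane anchor of the complex, read 8.77, 8.85 and 8.89 in small-litter females and 9.42, 8.99 and 8.86 in control females. It read 8.63, 8.63 and 8.52 in small-litter males and 8.85, 8.97 and 8.63 in control males. One control mouse of each sex lay within or at the edge of the small-litter range. The difference was -0.25 ± 0.14 in females, -0.22 ± 0.14 in males and -0.24 ± 0.10 on average (limma adjusted p = 0.81401), and -0.09 in females and -0.15 on average without female control 1.

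Sdhc, the other membrane anchor, had opposite signs in the sexes. It read 11.68, 11.61 and 11.57 in small-litter females and 11.53, 11.48 and 11.53 in control females, without overlap. It read 11.55, 11.07 and 10.89 in small-litter males and 11.53, 11.56 and 11.27 in control males, so male small litter 2 and 3 alone lay below the controls. The difference was 0.11 ± 0.15 in females and -0.28 ± 0.15 in males (adjusted p = 0.41657), and female minus male was 0.39 ± 0.21 (limma adjusted p = 0.53444). Without male small litter 1 the difference in males was -0.48 (adjusted p = 0.036237), and without male small litter 2 and 3 it was 0.10. Sdhb, the iron-sulfur subunit, differed by 0.03 ± 0.08 on average.

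Of the 6 complex III genes, 4 were higher on average, with a median of 0.034. The median was 0.0434 in females and 0.0043 in males. The mean of their array medians was -0.007 in small-litter males and 0.036 in control males, against 0.015 and -0.038 in females. Uqcr11, a small accessory subunit, read 12.84, 12.82 and 12.82 in small-litter females and 12.67, 12.69 and 12.70 in control females, without overlap. It read 12.77, 12.73 and 12.64 in small-litter males and 12.78, 12.78 and 12.69 in control males. The female effect minus the male effect was 0.17 ± 0.12 (limma adjusted p = 0.61309). Uqcr10, another small accessory subunit, differed by 0.05 ± 0.06 on average. The core proteins Uqcrc1 and Uqcrc2 differed by 0.04 and -0.01 on average.

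Of 13 complex IV genes, 10 were higher in small-litter mice on average (median 0.051), with a median of 0.014 in females and 0.133 in males. Without Cox8b, detected on small-litter arrays alone, 9 of 12 were higher on average (median 0.050), with medians of 0.011 and 0.103. Several of its subunits have tissue isoforms, and those measured did not share a direction. Cox7a2, the isoform of subunit 7a found in most tissues, read 9.0, 9.26 and 9.25 in small-litter females and 9.33, 9.32 and 9.33 in control females. It read 9.23, 9.27 and 9.32 in small-litter males and 9.09, 8.99 and 8.89 in control males. The groups were apart in both sexes and in opposite directions, -0.16 ± 0.10 in females and 0.29 ± 0.10 in males. Without female small litter 1 the difference in females was -0.07. The female effect minus the male effect was -0.45 ± 0.14 (limma adjusted p = 0.41716), which ranked 204 among all features by p. Between the control mice, male minus female was -0.34 ± 0.10 (adjusted p = 0.21504); these 3 comparisons share control mice.

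Cox7a1, the heart and muscle isoform of the same subunit, read 7.62, 7.55 and 7.49 in small-litter females and 7.30, 7.70 and 7.73 in control females. It read 7.56, 7.47 and 7.47 in small-litter males and 7.40, 7.83 and 7.23 in control males, so that controls of both sexes enclosed the small-litter mice. Cox7a2l, a related protein that joins complexes III and IV into supercomplexes, read 11.09, 11.16 and 11.08 in small-litter females and 11.08, 10.93 and 10.93 in control females. It read 11.21, 11.09 and 11.04 in small-litter males and 11.11, 11.08 and 11.25 in control males. The female groups were apart by less than the rounding of these values. Its difference was 0.13 ± 0.09 in females and -0.03 ± 0.09 in males.

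Cox6a1, the isoform of subunit 6a in brain and most tissues, read 13.55, 13.38 and 13.42 in small-litter females and 13.34, 13.33 and 13.26 in control females, without overlap. It read 13.44, 13.39 and 13.65 in small-litter males and 13.44, 13.58 and 13.58 in control males. Its muscle counterpart Cox6a2 read 7.01, 7.11 and 6.76 in small-litter females and 6.97, 6.72 and 6.70 in control females. It read 6.97, 6.52 and 6.81 in small-litter males and 6.59, 6.77 and 6.07 in control males. Cox6a2 had the smallest p of complex IV on average, 0.23 ± 0.12, with overlap in both sexes. Cox4i1, the main isoform of subunit 4, read 13.92, 14.14 and 13.77 in small-litter females and 14.07, 13.95 and 13.90 in control females, and 14.03, 13.89 and 14.02 in small-litter males and 13.91, 14.01 and 13.92 in control males. It did not move beyond its spread, with differences of -0.03 ± 0.11 and 0.03 ± 0.11. Cox8b, a muscle isoform, was detected on 2 of 3 small-litter female arrays and 1 of 3 small-litter male arrays, and on no control array, so no fold is given. It read 5.18, 5.11 and 4.53 in small-litter females and 4.51, 4.81 and 4.56 in control females, and 5.35, 4.91 and 4.40 in small-litter males and 4.69, 4.79 and 4.74 in control males, near the limit of detection.

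Among the 16 ATP synthase genes, 11 were higher on average (median 0.066), 10 in females (median 0.034) and 10 in males (median 0.079). Atp5md encodes DAPIT, a small membrane subunit that helps link ATP synthase dimers. It read 8.35, 8.64 and 8.99 in small-litter males and 7.98, 7.95 and 7.79 in control males. It read 8.51, 8.22 and 8.16 in small-litter females and 8.81, 8.30 and 7.69 in control females. The male groups were apart, while the control females spanned the small-litter females. The difference was 0.76 ± 0.23 in males, a fold of 1.69 with a 95% interval of 0.25 to 1.26 on the log2 scale (limma adjusted p = 0.2661), and 0.03 ± 0.23 in females. The female minus male effect was -0.73 ± 0.33 (limma adjusted p = 0.50007), and -0.46 without female control 1.

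Atp5d, the delta subunit of the rotating stalk, read 11.53, 11.69 and 11.82 in small-litter males and 11.51, 11.51 and 11.28 in control males, apart by 0.25 ± 0.11 (limma adjusted p = 0.36324). In females it differed by -0.05 ± 0.11, reading 11.50, 11.52 and 11.26 in small-litter females and 11.55, 11.48 and 11.40 in control females. Atp5j, coupling factor 6 of the fixed outer stalk, read 13.42, 13.40 and 13.48 in small-litter males and 13.26, 13.37 and 13.30 in control males. Its average difference was 0.09 ± 0.06. The remaining members that did not overlap in males were Cox5a, Ndufa7, Ndufa8 and Ndufs3, and in females Atp5h, Ndufa3 and Ndufa6, all higher in small-litter mice.

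**Figure D4:**
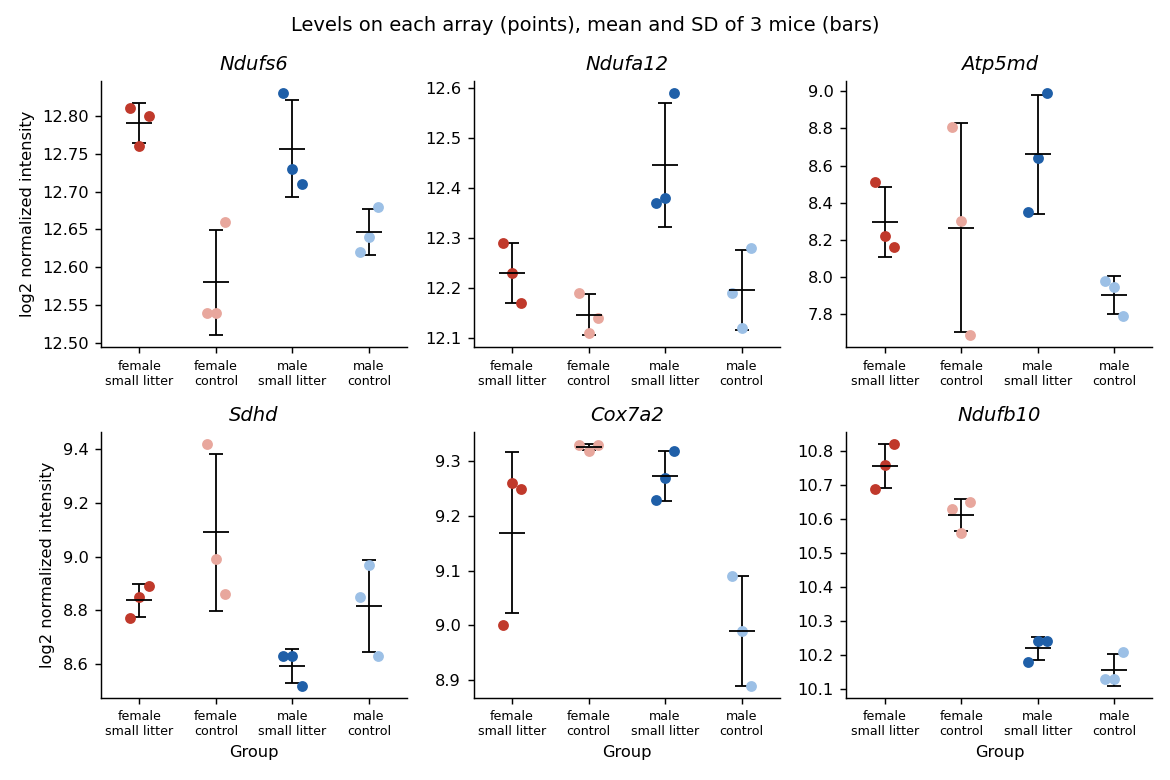
Log2 normalized intensity of 6 genes on each array (points), with the mean and SD of 3 mice (bars), in small-litter females, control females, small-litter males and control males. Ndufs6 is above its controls in both sexes, Atp5md and Ndufa12 in males, Cox7a2 has opposite directions in the sexes, and Ndufb10 lies between 10.13 and 10.24 in all 6 males and between 10.56 and 10.82 in all 6 females.

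The female minus male difference in the small-litter effect was above 0 for 31 of 79 members (39.2%), against 51.8% of all features. The members' median was -0.036, against 0.011 over all features. It depended on single arrays: the median was -0.0061 without male small litter 3, -0.0088 without male control 3 and -0.013 without female control 1. The median of complex IV was -0.060 and that of complex I -0.046, and no complex had a member past the threshold.

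Between control males and control females, the members as a set did not lean to either sex with the brightest probe per gene and quantile normalization. Male minus female was above 0 for 42 of 79 (53.2%), against 50.4% of all features, with a median of 0.0092 against 0.0015. The direction depended on the processing. With every probe on its own, 49 of 111 were above 0 (median -0.0198, against 0.0033 over all features). With median scaling, 53 of 79 were (median 0.0545, against 0.0318). Of the members, 10 (12.7%) had all control males above all control females, against 9.83% of all features. In 7 (8.86%) all control males lay below, against 8.56%. These shares are near those of all features.

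Ndufb10, an accessory subunit at the far end of the membrane arm, had the smallest p of all members between control males and control females. It read 10.13, 10.13 and 10.21 in control males and 10.63, 10.56 and 10.65 in control females, a difference of -0.46 ± 0.08 (limma adjusted p = 0.089452) that ranked 16 among all features. That is a fold of 0.728, with a 95% interval of -0.64 to -0.28 on the log2 scale. The small-litter mice did not enter that difference, but they entered its standard error, its adjusted p and the normalization. They read 10.18, 10.24 and 10.24 in males and 10.69, 10.76 and 10.82 in females, so all 6 males lay below all 6 females. How many of all features separate the sexes in this way was not counted. Small-litter females also lay above control females, by 0.15 ± 0.08 (adjusted p = 0.9996). A second Ndufb10 probe differed by -0.11 between the control groups. Under 5 other ways of processing the adjusted p was under 0.05, from 0.008994 to 0.036607.

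Other members with an unadjusted p under 0.05 between control males and control females, given here with Ndufa9, lay in both directions. Ndufaf3, an early assembly factor, read 7.43, 7.56 and 6.87 in control males and 7.74, 7.77 and 7.85 in control females, -0.50 ± 0.19. Ndufaf2 read 9.67, 9.58 and 9.44 in control males and 10.03, 9.85 and 9.70 in control females, -0.30 ± 0.10 (adjusted p = 0.28707). In the other direction Ndufaf4, a partner of Ndufaf3 in early assembly, read 9.83, 9.86 and 9.92 in control males and 9.71, 9.61 and 9.62 in control females, 0.22 ± 0.09 (adjusted p = 0.35701). Ndufa9, an accessory subunit where the arms of complex I meet, read 12.03, 12.23 and 12.04 in control males and 11.96, 11.90 and 11.87 in control females, 0.19 ± 0.10. Cox6a1 differed by 0.22 ± 0.10 (adjusted p = 0.3796). Second probes did not agree: that of Ndufaf4 differed by -0.22 and that of Cox6a1 by -0.04. The 3 members on the X chromosome had differences smaller than their standard errors, with Cox7b at -0.02 ± 0.18, Ndufa1 at -0.06 ± 0.10 and Ndufb11 at 0.01 ± 0.16.

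Of the genes on other mitochondrial lists, 0 passed in any small-litter comparison, and the lists are given beside the chain genes without a test of the difference. Of 8 genes of the mitochondrial DNA with a probe, 6 were higher in small-litter mice on average (median 0.089), 5 in females (median 0.017) and 6 in males (median 0.172), with ATP6 at 0.14 ± 0.11 and ND1 at 0.09 ± 0.08. Their differences ran widely, from -0.351 to 0.417 in females and from -0.674 to 0.539 in males. In males 2 of them had an unadjusted limma p under 0.05, 1 higher and 1 lower. Of 34 assembly factors outside the members, 19 were higher (median 0.010), among them Sdhaf3, a complex II factor, at 0.22 ± 0.09; Ecsit, a complex I factor, differed by -0.18 ± 0.08. Among 14 carriers, pores and import genes 9 were higher (median 0.013), 5 in females (median -0.027) and 12 in males (median 0.114), with Slc25a3, the phosphate carrier that feeds the ATP synthase, at 0.19 ± 0.07. The tricarboxylic acid cycle split evenly, 8 of 16 higher (median 1e-04). Glycolysis had 8 of 14 higher (median 0.002), mitochondrial antioxidants 2 of 8 (median -0.031), the mitochondrial ribosome 40 of 73 (median 0.014) and the cytosolic ribosome 37 of 59 (median 0.023). In males alone, glycolysis had 10 of 14 higher (median 0.0397), the mitochondrial ribosome 46 of 73 (median 0.0365) and the cytosolic ribosome 38 of 59 (median 0.0414). These male shares also lay above the 47.6% of all features. In females they had 7 of 14 (median 0.0054), 32 of 73 (median -0.0135) and 28 of 59 (median -0.0039) higher. Antioxidants had 5 of 8 higher in females and 3 of 8 in males. Of 5 remaining nuclear chain genes 3 were higher (median 0.020), with cytochrome c, Cycs, at 0.05 ± 0.08 and the ATP synthase inhibitor Atpif1 at -0.10 ± 0.08.

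Regulators of mitochondrial biogenesis did not lean upward as a list: 8 of 17 were higher on average (median -0.0096) and 6 of 17 in males (median -0.070). Tfb1m, which methylates the RNA of the mitochondrial ribosome, read 5.81, 6.31 and 6.27 in small-litter males and 4.14, 5.64 and 4.79 in control males. It was detected on 3 small-litter male arrays and 1 control male array, and the difference was 1.27 ± 0.28 in males and -0.04 ± 0.28 in females. Control males minus control females, which read 7.14, 6.88 and 7.10, was -2.18 (adjusted p = 0.0068174), 1 of the 9 features that passed in that comparison. With 2 of 3 control male arrays not well above background, the sizes of both male differences of Tfb1m are uncertain. Ppargc1b, a coactivator of mitochondrial genes, read 8.03, 7.79 and 7.76 in small-litter males and 8.74, 8.17 and 8.23 in control males, -0.52 ± 0.15, and -0.29 ± 0.10 on average (adjusted p = 0.81401).

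**Figure D5:**
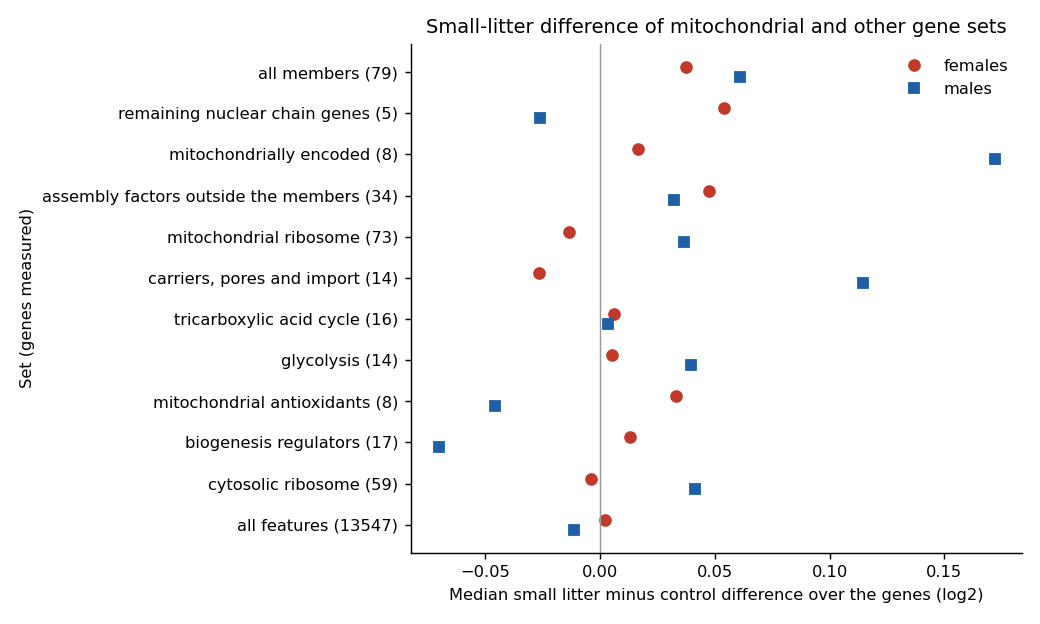
Median small litter minus control difference (log2) over the genes of each list, in females (circles) and males (squares), with the number of genes measured in brackets. The 79 members stand at 0.038 and 0.061, to the right of all 13547 features (0.0022 and -0.011) after quantile normalization; with median scaling, not drawn, their medians were -0.032 and -0.034, still above those of all features; the mitochondrially encoded list, of 8 genes, stands at 0.017 and 0.172.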

How the data were processed

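Per the labels, biotin-labelled total RNA of 12 hypothalami was hybridised to Illumina bead arrays. The deposited intensity of each of 45281 probes is the mean bead signal, per the file headers, neither background-subtracted nor normalized between arrays as the values show. The deposited detection p-value of each probe is set against negative controls, per the file headers. The deposited log2 values of the authors, made with lumi per the submitters' processing notes, cover 20791 probes and served as an alternative; its version and settings are not given there or elsewhere in the labels. Gene names covered only these 20791 probes (18003 with 1 symbol, 6 with several and 2782 without). That number equals that of probes with a detection p under 0.05 on 6 or more arrays.

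The analysis started from the intensities, with the neqc function (limma 3.58.1, R 4.3.3): normexp with negative controls inferred from detection p, offset 16, quantile normalization and log2. Features were kept if 3 or more of 12 arrays had a detection p under 0.01 (19704 probes), and the probe with the highest mean stood for its gene (24 members had several). A group-means model covered all 12 arrays (lmFit, eBayes, 8 residual and 4.84 prior degrees of freedom), with 5 two-sided contrasts adjusted by Benjamini-Hochberg over 13547 features. Steps were tested on simulated data. Precision is limited by 3 arrays per group. Python 3.11.15 with pandas 2.3.3 and matplotlib 3.10.9 drew the figures.

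Members, lists and tests were chosen with earlier results of these data known. Values on each array are given for members past the threshold or, where none passed, for the 3 of smallest p in either direction of a comparison, and for tissue isoforms. Members with the smallest p of their complex and up to 2 genes of each list are named besides; Atp5d, Atp5j and Ndufaf3 were added after their values were seen, as were the X-linked members. Marker lists covered neurons, glia, vessels, meninges, choroid plexus, blood, muscle and neighbouring brain regions. Alternatives changed the values (the authors' own), background correction (none), offset (50), scaling (median), detection filter, probe rule (all probes), arrays in the fit, eBayes settings, array weights, replicate block and arrays left out.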

Additional observations from a re-analysis of the deposited data

How the results depend on the processing

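Members called numbered 0 under all alternatives except these. In control males against control females Ndufb10 alone was called (1 member) with the authors' values (difference -0.43, adjusted p = 0.0092104), without background correction (-0.43, 0.008994), with an offset of 50 (-0.447, 0.036607), without detection filter (-0.459, 0.029043) and with eBayes trend and robust (-0.459, 0.013635). With each array left out in turn, members called ranged from 0 to 2 in males (2 without male small litter 1, Sdhc and Ndufb9) and were 0 in the other comparisons. Features called between control males and control females were 16 with the authors' values, 17 without background correction, 1 with detection on all 12 arrays, 15 with every probe, 5 with only the arrays compared and 29 with trend and robust, against 9. With an array left out they ranged from 0 to 1 in females, 0 to 662 in males, 0 to 1 on average, 0 to 190 for the difference of effects (662 and 190 without male small litter 1) and 7 to 11 between sexes.

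Median scaling moved the members' median to -0.0316 in females, -0.0339 in males, -0.0407 on average and 0.0545 between sexes; less the median of all features it stayed above 0 in females, males and the average under every alternative run (0.0205 to 0.0451, 0.0196 to 0.0949 and 0.0233 to 0.0673). With every probe on its own the median was 0.093 in males and -0.0198 between sexes. Without male small litter 2 and 3 it was 0.0253 in males and -0.0071 for the difference of effects; Sdhc in males was 0.098 and Ndufv1 on average 0.011, the only 2 of 30 named values that reversed. Without male control 3 and male small litter 3, chosen after seeing the data, 1 feature was called in males, 1 on average, 1 for the difference of effects and 16 between sexes, and the medians were 0.0243 in males and 0.0164 for the difference of effects. With an array left out the median ranged from 0.0254 to 0.0501 in females, 0.0416 to 0.0759 in males, 0.0455 to 0.0619 on average, -0.0507 to -0.0061 for the difference of effects and -0.0205 to 0.0241 between sexes. Leaving out Cox8b, also chosen after seeing the data, changed no call. Where no cause is named, the cause was not tested. Mice with the same replicate number did not deviate together (correlations from -0.056 to 0.042), and with the replicate number as a block (replicate block) members called stayed 0, features called were 10 between sexes, and the median on average was 0.0492.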

Other observations

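Of the members, 24 had more than 1 detected probe, which gave 32 further probes outside the values above. In small-litter against control mice, 22 of these 32 were higher in females (median 0.042), 27 in males (median 0.13) and 29 on average (median 0.089). On average 28 of 32 had the sign of the probe used for their gene, 23 in females and 27 in males. Between control males and control females 7 of 32 were above 0 (median -0.092) and 15 had the sign of the probe used. The further probes are of the same RNA on the same arrays, so they repeat the measurement and not the mice.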
